A study of Mus musculus with 12 samples.

Results

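The striatum of 4 PBS-treated BACHD mice was described by itself, without a treatment comparison. Members were those probes whose detection p-value lay below 0.01 on each of the 4 PBS arrays, 14265 of the 45281 probes on the array (31.5%). They covered 8768 of the 19057 genes that had a probe of their own (46%). A further 1924 genes (10.1%) were detected on 1 to 3 of the PBS arrays and 8365 genes (43.9%) on 0.

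BACHD mice carry a bacterial artificial chromosome with full-length human mutant huntingtin under its own regulatory elements, on the FVB background, so that all 12 mice of the series bore the transgene and no wild-type mouse was included. The series held 4 mice given PBS, 4 given an antisense oligonucleotide (ASO) against wig-1 and 4 given a control ASO, all 5 months old. The sample labels call the PBS group untreated, whereas the methods describe a single striatal injection of PBS. The tissue is labelled brain, and the methods name the striatum; the week after injection of the arrays was not given in the sources used here. Each mouse had 1 array, so that the spread between the 4 PBS mice holds animal, dissection and array together.

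The striatum receives glutamate from cortex and thalamus and dopamine from the midbrain. Most of its neurons are GABAergic spiny projection neurons, which fall into a direct pathway with D1 dopamine receptors, substance P and dynorphin, and an indirect pathway with D2 receptors and enkephalin. A small number of interneurons makes acetylcholine, parvalbumin, somatostatin with neuropeptide Y, or calretinin, and spiny neurons are the cells lost first in Huntington's disease.

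Signals are given as log2 of the deposited normalized intensity. The detection limit fell at a signal of 7.0 to 7.68 on the 4 arrays, or 2.81 to 2.94 on the log2 scale. Between 16064 and 16518 probes passed it per PBS array. Log2 signals of member probes correlated between PBS arrays with a Pearson coefficient of 0.972 to 0.987, across probes, which are not independent replicates. Brightness depends on the probe as well as on the transcript, so values of different genes are given side by side and not ranked by abundance. A gene that was not detected may still be transcribed: Snap25, a synaptic fusion protein of nearly every neuron, had 2 probes that were detected on 0 of the PBS arrays.

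The promoters of detected and undetected genes differed in base composition. RefSeq promoters (build GRCm38.p6, 250 bases before the start and 50 after it) were matched for 7135 of the genes detected on all 4 arrays and 6589 of those detected on 0. The median number of CG dinucleotides was 21 in the first class and 5 in the second. Genes on 1 to 3 arrays lay between them, with a median of 17 over 1513 promoters. Without olfactory and vomeronasal receptors, the median of the undetected class was 7. The 4 sequences below are the 100 bases before the start of a D1 receptor gene, a D2 receptor gene, a myelin gene and an albumin gene, shown as examples of genes of neurons, glia and another tissue, with CG in capitals, each read 5′ to 3′ on the strand of its gene.
Drd1 (chr13:54055659-54055758, minus strand): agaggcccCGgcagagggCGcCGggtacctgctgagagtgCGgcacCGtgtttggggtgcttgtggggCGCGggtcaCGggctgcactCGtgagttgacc
Drd2 (chr9:49340303-49340402, plus strand): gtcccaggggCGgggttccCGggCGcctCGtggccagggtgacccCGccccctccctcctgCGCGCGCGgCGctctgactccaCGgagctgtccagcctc
Mog (chr17:37023399-37023498, minus strand): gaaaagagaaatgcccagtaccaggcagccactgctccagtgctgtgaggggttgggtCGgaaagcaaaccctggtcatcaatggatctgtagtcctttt
Alb (chr5:90460770-90460869, plus strand): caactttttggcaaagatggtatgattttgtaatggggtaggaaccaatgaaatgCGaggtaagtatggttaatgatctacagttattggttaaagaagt
These stretches hold 9 CG in Drd1, 11 in Drd2, 1 in Mog and 1 in Alb. Drd1, Drd2 and Mog were detected on all 4 PBS arrays and Alb on 0. Counts in these shorter stretches are not comparable with the medians over whole promoters.

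**Figure D1:**
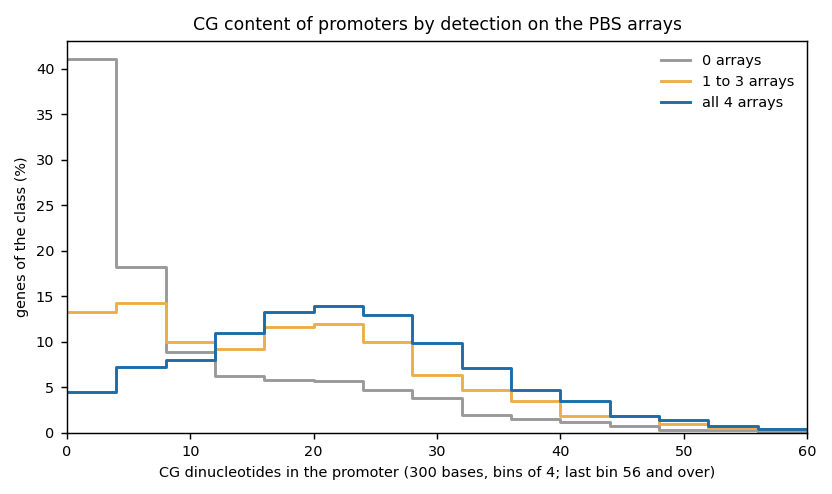
Number of CG dinucleotides in the RefSeq promoter (x axis, bins of 4) against the percentage of genes of each class (y axis), for genes detected on 0, on 1 to 3 and on all 4 PBS arrays. The undetected class piles up at the left, with a median of 5, and the class detected on all 4 arrays is centred on a median of 21.

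By gene list, the median CG number was 18 for pan-neuronal genes, 19 for spiny projection neuron genes, 28 for immediate early genes and 21 for cytosolic ribosomal proteins. These medians rest on 11, 15, 12 and 51 matched promoters. The median was 8 for astrocyte, 5.5 for oligodendrocyte and 5 for microglia genes, and 1 for olfactory receptors. Nearly all genes of these glial lists were detected, but promoters were matched for 13 of 16, 10 of 15 and 11 of 17. The medians did not divide neuronal from glial lists, with 5 for sodium channels, 10 for neuropeptide precursors and 12 for oligodendrocyte precursor genes (7, 17 and 6 promoters). The letters TATAAA at bases -45 to -16, on the strand of the gene, stood in 4.66% of promoters of undetected genes and in 1.18% of those detected on all 4 arrays, against 2.82% of the 15237 measured genes with a promoter and 2.14% of all 32851 promoters in the table.

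The palindrome TGACGTCA, the recognition letters of the CREB family of factors that respond to cyclic AMP, ran the other way. It was found in 3.45% of promoters of genes detected on all 4 arrays and 1.40% of those on 0, against 2.47% of the measured genes and 1.79% of all promoters. These letters themselves hold a CG, and promoters of the detected class held more CG (median 21 against 5). Whether the palindrome differed beyond base composition was not tested. The palindrome is shown in capitals in 2 neuropeptide genes, with the bases counted from the start of the transcript.
Sst (chr16:23890874-23890903, minus strand, -59 to -30): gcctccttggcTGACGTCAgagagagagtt
Cartpt (chr13:99900777-99900806, minus strand, -123 to -94): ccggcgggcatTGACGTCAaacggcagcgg
Both genes were detected on all 4 arrays: Sst, the somatostatin precursor, at 11.25, 10.97, 10.93 and 10.90 in PBS mice 1 to 4, and Cartpt, the precursor of the peptide CART, at 7.38, 7.20, 7.21 and 7.79.

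Member probes had a mean log2 signal between 3.01 and 13.76, with a median of 6.16 and a middle range of 4.81 to 7.71. The 10 brightest member probes held 2.98% of the summed member signal and the 100 brightest 17.8%. Just inside the rule lay probes of Las1l, Inpp5d and Bbs12, with means of 3.01, 3.03 and 3.04, and 2 probes without a gene name. Just outside it, detected on 3 arrays, the brightest included Vstm2a at 4.62, 5.34, 5.77 and 2.84, and Top1, a DNA topoisomerase, at 4.83, 5.49, 5.60 and 2.53. In these last 2 genes the missing array was PBS mouse 4.

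The 20 genes of highest signal had means of 12.88 to 13.65. They held the ferritin heavy chain Fth1 at 13.66, 13.57, 13.57 and 13.79, the mitochondrially encoded subunits ND4, ND1 and CYTB, the ATP synthase subunit Atp5b, and the ribosomal protein genes Rpl41, Rplp1, Rpl23, Rps29, Rpl38 and Rpl37. Brain genes among them were creatine kinase B (Ckb, mean 13.41), the secreted protease inhibitor cystatin C (Cst3, 13.21), the CaM kinase II inhibitor Camk2n1 (13.05) and myelin basic protein (Mbp, 12.99). Tuba1b, Tmsb4x, Uba6, Nme7 and the ubiquitin pseudogene Ubb-ps completed the set. Of the 20 brightest probes of any kind, 9 had no gene name or several.

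**Figure D2:**
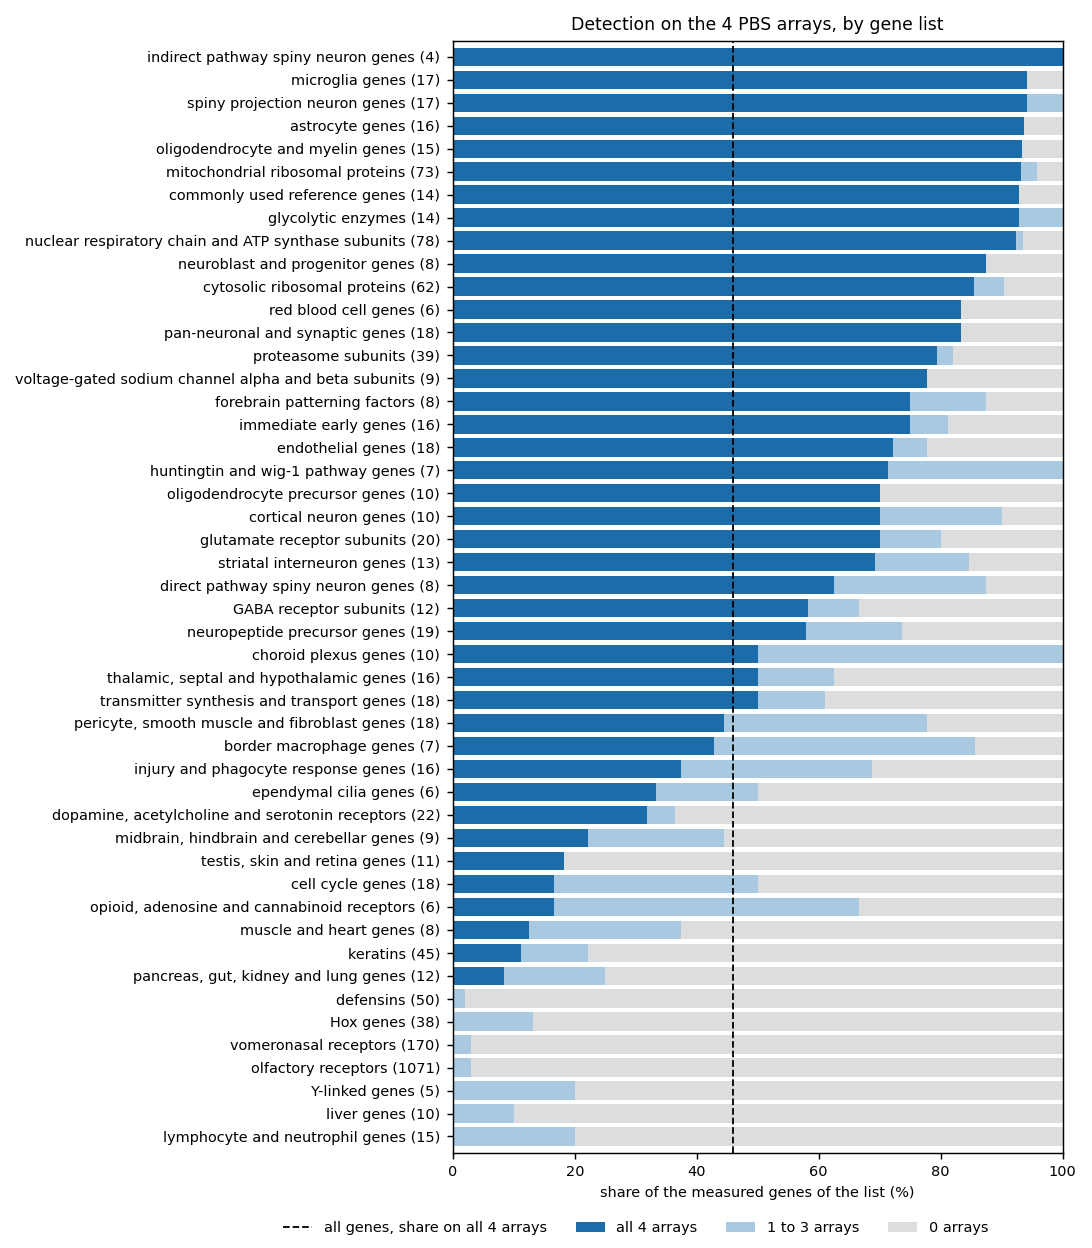
Share of the measured genes of each list (number in brackets) that was detected on all 4, on 1 to 3 or on 0 PBS arrays (x axis, percent), with the dashed line at 46%, the share of all genes detected on all 4. Spiny projection neuron, microglia, astrocyte and oligodendrocyte lists stand above 93%, and liver, Hox, defensin, olfactory and vomeronasal receptor lists at 0%.

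Genes of spiny projection neurons were measured almost completely. Of 17 measured, 16 were detected on all 4 PBS arrays (94.1%, against 46% of all genes). Ppp1r1b, which encodes the dopamine-regulated phosphatase inhibitor DARPP-32, lay at 10.77, 10.87, 10.62 and 11.13 in PBS mice 1 to 4. Rgs9, an accelerator of G protein inactivation, lay at 10.53, 10.43, 10.21 and 10.80. In both genes PBS mouse 4 was the highest and PBS mouse 3 the lowest. The phosphodiesterase Pde1b lay at 11.89, 11.72, 11.51 and 12.13, and Pde10a, another phosphodiesterase rich in these neurons, at 6.41, 6.53, 6.01 and 6.81. Gnal, the olfactory-type G protein that couples D1 receptors to adenylyl cyclase, lay at 7.47, 7.28, 7.04 and 7.11. The exception was Adcy5, the main striatal adenylyl cyclase, at 1.5, 1.19, 1.16 and 3.0, which passed the limit in PBS mouse 4 alone.

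The spread of these genes between mice was small for some and ordered for others. Gng7, the G protein gamma subunit that pairs with Gnal, had an SD of 0.05 around 11.23, Meis2, a homeobox factor, 0.05 around 9.81, and Arpp21, a cyclic AMP-regulated phosphoprotein, 0.08 around 12.09. The largest SD of the list was 0.55, for Rasgrp2, a guanine exchange factor, at 4.93, 5.37, 4.76 and 6.0. PBS mouse 4 was the highest in 11 of the 16 genes detected on all 4 arrays, and the highest in 36.1% of all such genes. PBS mouse 3 was the lowest in 11 of the 16 and in 32.7% of all.

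**Figure D3:**
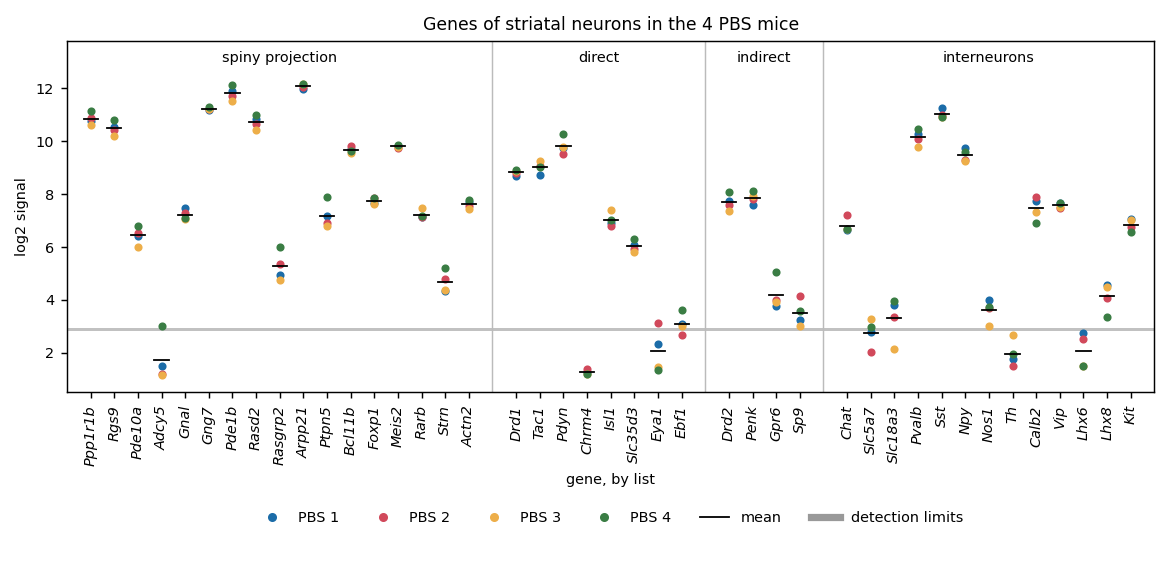
Log2 signal (y axis) of each gene (x axis) of 4 lists of striatal neuron genes in PBS mice 1 to 4 (coloured points), with the mean as a black line and the range of the detection limits of the 4 arrays, 2.81 to 2.94, as a grey band. Adcy5, Chrm4, Eya1, Th, Lhx6 and Slc5a7 have means under the band, and PBS mouse 4 is the top point of Ppp1r1b, Rgs9, Pde1b and Ptpn5.

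Direct pathway genes were detected on all 4 arrays for 5 of 8 (62.5%, against 46% of all genes). The D1 receptor Drd1 lay at 8.70, 8.82, 8.86 and 8.91, with an SD of 0.09. Tac1, the substance P precursor, lay at 8.73, 9.08, 9.25 and 9.02. Pdyn, the dynorphin precursor, lay at 9.75, 9.51, 9.79 and 10.27. Isl1 and Slc35d3 were also detected in every mouse, at means of 7.02 and 6.02. Chrm4, the M4 muscarinic receptor, was detected on 0 arrays at a mean of 1.27, while Eya1 passed on 1 array and Ebf1 on 3. All 4 measured indirect pathway genes were detected on every array: the D2 receptor Drd2 at 7.74, 7.59, 7.36 and 8.08, the enkephalin precursor Penk at 7.58, 7.83, 7.92 and 8.12, the receptor Gpr6 at 3.79, 4.01, 3.92 and 5.04, and the factor Sp9 at 3.26, 4.15, 3.01 and 3.60. PBS mouse 4 was the highest in Drd2, Penk and Gpr6. Adora2a and Gpr52 were not analysed here.

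Interneuron genes were detected on all 4 arrays for 9 of 13 (69.2%, against 46% of all genes). Parvalbumin (Pvalb) lay at 10.28, 10.10, 9.77 and 10.45, and neuropeptide Y (Npy) at 9.76, 9.29, 9.24 and 9.61. Calretinin (Calb2) was lowest in PBS mouse 4, at 7.75, 7.90, 7.31 and 6.90. The acetylcholine-synthesizing enzyme Chat lay at 6.66, 7.22, 6.68 and 6.67, so that PBS mouse 2 stood above the other mice. The choline transporter Slc5a7 and the vesicular acetylcholine transporter Slc18a3 passed the limit on 2 and 3 arrays, at means of 2.76 and 3.32. Nos1, the neuronal nitric oxide synthase, lay close to the limit, at 4.01, 3.70, 3.01 and 3.72. Lhx6, a factor of parvalbumin and somatostatin interneurons, was detected on 0 arrays. PBS mouse 1 was the highest in 6 of the 9 interneuron genes detected on all arrays, and in 23.1% of all such genes.

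Of 19 neuropeptide precursors, 11 were detected on all 4 arrays (57.9%, against 46% of all genes). Besides those of the spiny neuron and interneuron lists they included cholecystokinin (Cck) at 10.29, 10.05, 10.05 and 10.45 and thyrotropin-releasing hormone (Trh) at 4.86, 4.76, 4.50 and 4.63. Vasoactive intestinal peptide (Vip), also in the interneuron list, lay at 7.68, 7.47, 7.50 and 7.66. Neurotensin (Nts) had the largest SD of the list, 0.57, at 4.04, 4.91, 4.22 and 3.53. The precursors of corticotropin-releasing hormone (Crh), galanin (Gal), pro-opiomelanocortin (Pomc), hypocretin (Hcrt) and vasopressin (Avp), peptides best known from the hypothalamus or scattered cell groups, were detected on 0 arrays. Oxytocin (Oxt) passed on 2 arrays and Pmch, the melanin-concentrating hormone precursor, on 1.

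Transmitter genes were detected for GABA neurons, and in part for neurons that use other transmitters. The GABA-synthesizing enzymes Gad1 and Gad2 lay at means of 11.49 and 10.31 and the vesicular GABA transporter Slc32a1 at 10.96, with SDs of 0.06, 0.16 and 0.10. Tyrosine hydroxylase (Th), the vesicular monoamine transporter Slc18a2 and the dopamine transporter Slc6a3 were detected on 0 arrays, each with 1 probe. Th is also a member of the interneuron list. Detection on 0 arrays also held for dopamine beta-hydroxylase (Dbh), the noradrenaline and serotonin transporters Slc6a2 and Slc6a4, and the glycine transporter Slc6a5. Tph2, the serotonin-synthesizing enzyme, passed in PBS mouse 1 alone, at 3.03, 1.41, 1.10 and 2.17. Ddc, the decarboxylase of dopamine and serotonin synthesis, was detected on all arrays at 5.27, 5.44, 5.43 and 4.78, and Hdc, the histamine-synthesizing enzyme, at 4.92, 5.42, 5.80 and 5.37. The list as a whole had 9 of 18 genes on all arrays (50%), a share near the 46% of all genes.

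Receptors were detected in part in each list, beside the 46% of all genes detected on all 4 arrays. Ionotropic and metabotropic glutamate receptor subunits together passed on all 4 arrays for 14 of 20 (70%), with the AMPA subunit Gria2 at 10.91, 11.14, 11.41 and 10.89, Gria1 at a mean of 9.61, the NMDA subunit Grin2b at 8.07 and the metabotropic receptor Grm5 at 9.12, 9.73, 9.93 and 9.47. GABA receptor subunits, the Gabbr genes included, did so for 7 of 12 (58.3%), of which Gabra3 (SD 0.71) and Gabrg3 (SD 0.77) varied most. In Gabra3, PBS mouse 4 lay at 4.13 and the other mice between 5.41 and 5.72. Dopamine, acetylcholine and serotonin receptors passed for 7 of 22 (31.8%), namely Drd1, Drd2, Chrm2, Chrm3, Htr1a, Htr1d and Htr1f. Drd3, Drd4 and Drd5 were detected on 0 arrays, as was the M1 receptor Chrm1. Of 6 opioid, adenosine and cannabinoid receptors, the nociceptin receptor Oprl1 was detected on all 4 arrays, at a mean of 6.58, and the cannabinoid receptor Cnr1, abundant in spiny neurons, on 1 array at a mean of 2.76. Sodium channel genes passed for 7 of 9, with the beta subunit Scn4b, rich in spiny neurons, at 9.88, 9.84, 9.53 and 10.13, while the sensory neuron channels Scn10a and Scn11a were detected on 0 arrays.

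Transcripts of neighbouring regions were also measured. Of 10 cortical neuron genes, 7 were detected on all 4 arrays (70%). Slc17a7, the vesicular glutamate transporter of cortical projection neurons, lay at 10.02, 9.88, 9.99 and 10.06. The cortical factors Tbr1 and Fezf2 lay at means of 6.96 and 7.71, with SDs of 0.04 and 0.12, and Lamp5 at 10.54, 10.39, 10.29 and 10.58. Neurod6 was detected on 0 arrays and Emx1 on 3. None of the 7 had PBS mouse 2 as its highest, and PBS mice 1 and 4 both lay above PBS mice 2 and 3 in 5 of the 7, as they did in 30.3% of all genes detected on all 4 arrays. Of 16 thalamic, septal and hypothalamic genes, 8 were detected on all arrays (50%), a share near the 46% of all genes. Among the 8 were the vesicular glutamate transporter Slc17a6 at 7.88, 7.91, 7.46 and 7.93 and the septal factor Zic1 at a mean of 7.21. The hypothalamic factors Otp and Sim1 were detected on 0 arrays. Which part of these signals came from adjoining tissue and which from the striatum itself was not tested. Midbrain, hindbrain and cerebellar genes passed on all arrays for 2 of 9, Gbx2 and Cbln1, at means of 4.45 and 4.99, while forebrain patterning factors did so for 6 of 8.

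Glial lists were nearly complete. Astrocyte genes were detected on all 4 arrays for 15 of 16 (93.8%), with the glutamate transporter Slc1a3 at 11.40, 11.37, 11.43 and 11.37, the gap junction protein Gja1 at a mean of 11.16, and the glycolytic enzyme Aldoc at 11.81. The intermediate filament Gfap lay at 9.73, 9.75, 10.30 and 9.55 and the water channel Aqp4 at 8.28, 8.74, 9.15 and 8.17. PBS mouse 3 was the highest in both and PBS mouse 4 the lowest. Mlc1 was the exception, detected on 0 arrays. In whole tissue, fewer cells of a type and less RNA per cell cannot be told apart.

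Oligodendrocyte and myelin genes were detected on all arrays for 14 of 15 (93.3%). Mbp lay at 12.90, 13.04, 13.10 and 12.90, Mog, a myelin surface protein, at 7.16, 7.58, 7.24 and 6.72, and Mobp at 9.19, 9.95, 9.89 and 8.67. PBS mouse 2 was the highest in 9 of the 14, against 16% of all genes detected on all arrays, and PBS mouse 4 the lowest in 7, against 24.9%. Ermn was detected on 0 arrays. Precursor genes passed for 7 of 10, with the growth factor receptor Pdgfra at 7.16, 6.98, 7.19 and 7.18 and the factor Olig1 at a mean of 10.58. Olig2, Vcan and C1ql1 were detected on 0 arrays, so that the 2 related factors Olig1 and Olig2 fell on opposite sides of the limit.

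Microglia genes were detected on all arrays for 16 of 17 (94.1%). The purinergic receptor P2ry12 lay at 8.59, 8.50, 8.52 and 8.59 and the fractalkine receptor Cx3cr1 at 7.58, 7.72, 7.77 and 7.30. The complement genes C1qa, C1qb and C1qc had means of 5.85, 7.43 and 6.81. The largest SD of the list was 0.36, for Aif1, which encodes IBA1. Itgam was detected on 0 arrays. Border macrophage genes were detected on all arrays for 3 of 7 (42.9%), a share near the 46% of all genes. Their means were 3.42 to 4.52, and Mrc1 lay at 4.71, 4.29, 4.57 and 4.52.

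Endothelial genes were detected on all 4 arrays for 13 of 18 (72.2%), with the tight junction protein Cldn5 at 7.98, 7.78, 7.72 and 8.16, the growth factor receptor Flt1 at a mean of 8.0, and the glucose transporter Slc2a1 at 9.23. PBS mice 1 and 4 both lay above PBS mice 2 and 3 in 8 of the 13, against 30.3% of all genes detected on all 4 arrays. Pericyte, smooth muscle and fibroblast genes passed for 8 of 18 (44.4%), a share near the 46% of all genes, with smooth muscle actin (Acta2) at 8.27, 7.58, 6.93 and 7.77 and the growth factor Igf2 at 9.57, 10.11, 9.92 and 9.84. Among collagen genes Col1a1 was detected on all arrays, at a mean of 3.61, and Col1a2 and Col3a1 on 0. Dcn, a matrix proteoglycan of fibroblasts, had a mean of 8.20. Red blood cell transcripts were detected: the globin genes Hba-a1, Hbb-bs and Hbb-bt had means of 11.63, 11.69 and 11.80, and Alas2, the haem-synthesizing enzyme of red cell precursors, lay at 4.87, 4.35, 3.57 and 4.04. Globin genes are near-identical copies, and how probes divide signal between them is uncertain.

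Of 15 lymphocyte and neutrophil genes, 0 were detected on all 4 arrays and 12 on 0. Those with some detection were Cd4 on 2 arrays, S100a8 on 3, at 3.73, 4.35, 4.06 and 1.36, and S100a9 on 2. Cell cycle genes passed on all arrays for 3 of 18 (16.7%, against 46% of all genes), which were the replication licensing genes Mcm4, Mcm5 and Mcm7. The related genes Mcm2, Mcm3 and Mcm6 passed on 1, 0 and 2 arrays. The mitotic genes Top2a, Ccnb2 and Cdk1 were detected on 0 arrays. Neuroblast and progenitor genes were detected for 7 of 8, with doublecortin (Dcx) at 5.17, 5.49, 5.56 and 5.77. Dlx2, a factor of GABAergic precursors, was at 2.87 in PBS mouse 1 and at 3.99 to 4.54 in the others.

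Genes of a response to injury were measured because the methods describe a striatal injection for every group. Detection on all arrays held for 6 of 16 (37.5%), against 46% of all genes. The acute phase gene Serpina3n lay at 9.66, 9.77, 9.6 and 9.75, and vimentin (Vim) at 6.19, 6.15, 6.33 and 5.48. Gpnmb, a glycoprotein of phagocytes, lay at 4.64, 5.22, 4.67 and 3.13, lowest in PBS mouse 4, on 1 probe, whereas its 3 other probes were detected on 0 arrays. The cytokine genes Il1b, Tnf and Il6 and the chemokine genes Ccl2 and Cxcl10 were detected on 0 arrays, with means of 1.20 to 1.68. By the methods no uninjected striatum was measured, so that none of these levels has a reference without surgery.

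Lists of other tissues gave the floor of detection. Of 41 genes of liver, muscle, heart, pancreas, gut, kidney, lung, testis, skin and retina, 32 were detected on 0 arrays and 4 on all: the skeletal actin Acta1 at a mean of 6.33, the elastase Cela1 at 4.42, the keratin Krt10 at 8.20 and loricrin (Lor) at 6.78. Olfactory receptors passed on all arrays for 0 of 1071 and on 1 to 3 arrays for 32. Counted by probe and array, 36 of 5104 olfactory receptor measurements passed (0.705%), and the per-array share ran from 0.313% to 1.10%, around the 1% that the limit allows by construction. Vomeronasal receptors passed in 0.579% of measurements and Hox genes in 2.19%.

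The opposite bound came from sets that are mostly used by every cell. Of 252 genes for cytosolic and mitochondrial ribosomal proteins, respiratory chain subunits and the proteasome, 224 were detected on all arrays (88.9%) and 21 on 0 (8.33%). The missed genes included Rpl6, Rpl14, Rps20, Rps23, Ndufs1, Sdha, Psma1 and Psma3, with means of 1.18 to 1.58, and 16 of the 21 had a single probe. Some of the 21, such as Cox7b2, Cox8c and Psma8 of the testis and Psmb11 of the thymus, are forms of other tissues. Of 18 pan-neuronal genes 15 passed, with Eno2, Syp and Vsnl1 at means of 12.09, 12.21 and 11.70, and Snap25, Nefl and Tubb3 were missed in the same way.

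Sex-linked transcripts were read because the study describes its BACHD mice as male. Xist, the RNA of the inactive X chromosome in female cells, was detected on all 4 PBS arrays at each of its 4 probes, the brightest lying at 7.71, 8.18, 8.4 and 8.01. It was also detected on all 12 arrays of the series at each of these probes, the brightest between 7.10 and 8.18 in the other 8 mice. The Y-linked genes Eif2s3y, Kdm5d, Usp9y and Sry were detected on 0 PBS arrays, at means of 1.21 to 1.73. Uty, also Y-linked, passed on 2 PBS arrays at 1 of its 4 probes, at 2.20, 3.08, 2.74 and 3.01. These levels go against the described sex, and the mice are therefore called PBS mice without a sex here.

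Among the genes of the study, wig-1 itself (Zmat3, a zinc finger protein that binds RNA) was steady, at 8.57, 8.60, 8.37 and 8.44 in the 4 PBS mice (SD 0.11). The probe of mouse huntingtin (Htt) passed on 3 arrays, at 3.47, 4.44, 1.25 and 3.28, with PBS mouse 3 under the limit. Whether that probe also binds the human transcript of the transgene is not given in the sources used here. Hap1, the huntingtin-associated protein, lay at 9.53, 9.62, 9.75 and 9.27. The p53 target genes Mdm2, Ccng1 and Cdkn1a had means of 7.96, 8.35 and 5.01, and Trp53 was not analysed here.

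Spread between the PBS mice depended on signal. The median SD of member probes was 0.20, and 898 of them (6.3%) had an SD over 0.5. In the band of mean signal from 3 to 4 the median SD was 0.34 and 16.9% of probes exceeded 0.5. Between 8 and 10 the median SD was 0.13 and 0.844% exceeded it. The least variable genes above the median signal were Nap1l4, a histone chaperone, at 9.76, 9.74, 9.74 and 9.75, followed by Plrg1 and Hmgn1, and the 10 of smallest SD had SDs of at most 0.016.

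**Figure D4:**
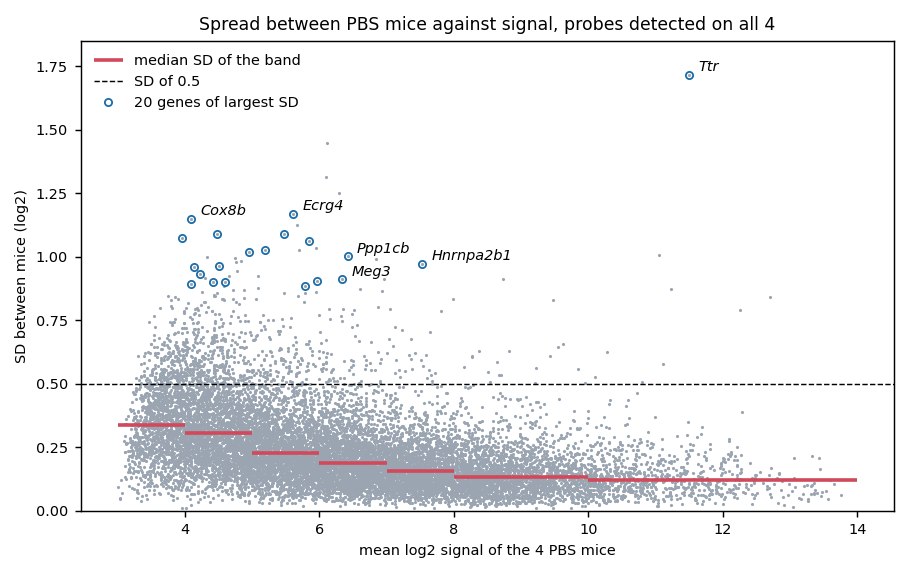
SD between the 4 PBS mice (y axis, log2) against the mean log2 signal (x axis) of each member probe, with the median SD of each signal band in red, the SD of 0.5 dashed, and the 20 genes of largest SD circled. Ttr stands alone at a mean of 11.50 and an SD of 1.72, while the median falls from 0.34 to 0.12 with rising signal.

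The gene of largest SD was Ttr, the thyroid hormone carrier transthyretin made by the choroid plexus, at 9.96, 13.33, 10.11 and 12.59 (SD 1.72). PBS mice 2 and 4 lay above PBS mice 1 and 3 without overlap. Of the 20 most variable genes, 4 had the same 2 mice on top: Ttr, Ecrg4 at 4.49, 7.02, 4.83 and 6.10, Cox8b at 3.0, 5.22, 3.22 and 4.95, and Sostdc1 at 2.97, 5.28, 3.20 and 4.36. These 2 mice were on top in 12.6% of all genes detected on all 4 arrays, and in 9.8% of member probes with an SD over 0.5. Of the 10 choroid plexus genes measured, PBS mouse 2 was the highest in 10, and PBS mice 2 and 4 both lay above the other 2 mice in 8. They included the folate receptor Folr1 at 2.83, 5.41, 1.36 and 3.62, the water channel Aqp1 at 1.86, 4.58, 1.35 and 4.16, and Kl, the membrane protein klotho, at 2.54, 6.26, 3.19 and 5.05. Detection on all 4 arrays held for 5 of the 10 (50%), a share near the 46% of all genes. PBS mouse 2 was the highest in each of these 5, against 16% of all genes detected on all 4 arrays. PBS mice 2 and 4 both lay above the other 2 mice in 4 of these 5, against 12.6%. In the other 8 mice of the series Ttr ranged from 6.61 to 13.66. Ependymal cilia genes passed for 2 of 6, Dynlrb2 at 4.89, 4.52, 5.31 and 5.35 and Rsph1 at a mean of 6.11, and neither had PBS mouse 2 as its highest.

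Pituitary hormones were looked up after prolactin (Prl) had appeared among the brightest probes outside the rule. Prl lay at 1.45, 4.23, 4.0 and 7.67 and growth hormone (Gh) at 1.56, 2.96, 2.30 and 4.65, both highest in PBS mouse 4 and lowest in PBS mouse 1. Pomc, Cga, Tshb, Lhb and Fshb were detected on 0 arrays.

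**Figure D5:**
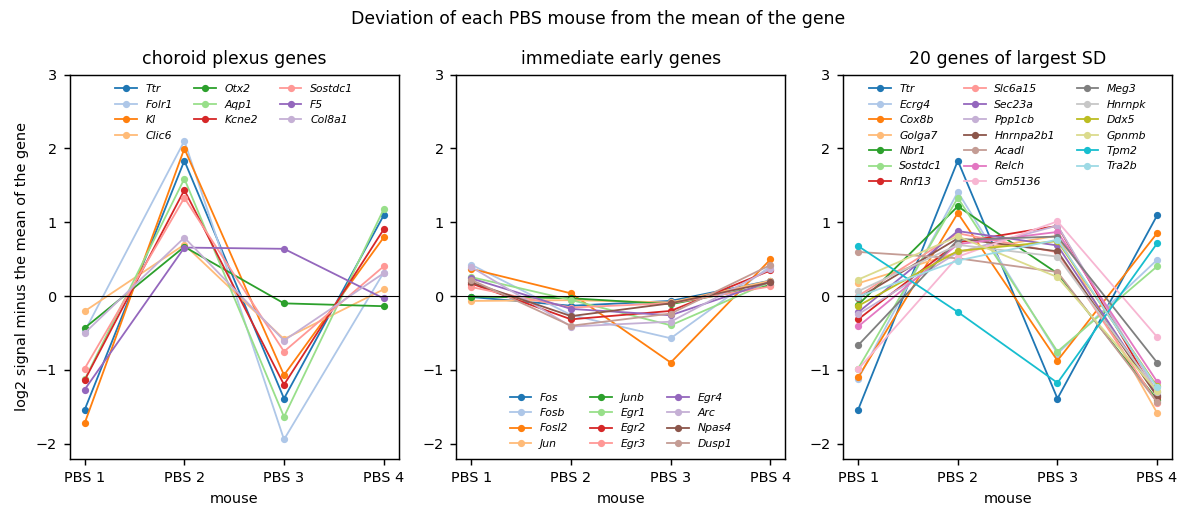
Log2 signal minus the mean of the gene (y axis) in each PBS mouse (x axis) for the 10 choroid plexus genes, the 12 immediate early genes detected on all arrays and the 20 genes of largest SD, each line joining the values of 1 gene. PBS mouse 2 is highest in all 10 choroid plexus genes, PBS mice 1 and 4 are above the other 2 in 11 of 12 immediate early genes, and PBS mouse 4 is lowest in 14 of the 20 genes of the last panel.

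Immediate early genes, which are transcribed within minutes of neuronal activity, were detected on all arrays for 12 of 16 (75%). Arc, a synaptic capsid-like protein, lay at 9.33, 8.52, 8.59 and 9.30, Egr1 at 11.73, 11.42, 11.08 and 11.66, and Fosb at 5.00, 4.32, 4.0 and 4.98. Fos itself lay at 7.06, 6.95, 7.01 and 7.29. PBS mice 1 and 4 both lay above PBS mice 2 and 3 in 11 of the 12, the exception being Jun, against 30.3% of all genes detected on all arrays. Averaged over the 12 genes, the mice deviated from the gene means by 0.19, -0.18, -0.28 and 0.27. Nr4a1, Ier2 and Btg2 were detected on 0 arrays and Nr4a3 on 1.

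Most of the other highly variable genes shared another pattern. In 14 of the 20, PBS mice 2 and 3 both lay above PBS mice 1 and 4, and in 14 PBS mouse 4 was the lowest, as it was in 24.9% of all genes detected on all arrays and in 398 of the 898 member probes with an SD over 0.5. The same 2 mice were on top in 369 of the 898 member probes with an SD over 0.5 (41.1%) and in 22% of all member probes. Examples were Hnrnpa2b1, an RNA-binding protein of the spliceosome, at 7.50, 8.31, 8.14 and 6.17, the phosphatase subunit Ppp1cb at 6.18, 7.01, 7.38 and 5.12, and the long non-coding RNA Meg3 at 5.67, 7.10, 7.14 and 5.44. Others were Hnrnpk, Ddx5 and Tra2b, which also act on RNA, and the membrane traffic genes Golga7, Rnf13 and Sec23a.

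Not every probe of such a gene shared the pattern. The second detected probe of Nbr1, a selective autophagy receptor, had an SD of 0.23 where the first had 1.09, and that of Hnrnpk 0.35 where the first had 0.90. That Hnrnpk probe lay at 4.60, 4.44, 4.92 and 5.22, with PBS mouse 4 the highest. In the second Nbr1 probe PBS mouse 4 was still the lowest, at 4.19, 4.13, 4.36 and 3.81. Hnrnpa2b1 had 5 probes, of which 3 were detected on 0 arrays and 1 on 3. The probe detected on 3 arrays also had PBS mouse 4 as its highest, at 3.51, 1.94, 2.87 and 3.95. In Ppp1cb, by contrast, both detected probes varied, with SDs of 1.0 and 1.45. A set of 5 bright probes without a gene name ran the other way, picked after their values were seen for a mean above 8 and an SD above 0.75. Their 4 values fell in the same order in each, PBS mouse 4 highest, then 1, 2 and 3, as in the probe at 13.10, 12.50, 11.62 and 13.57.

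Probes of the same gene often disagreed in signal. Among 2772 genes with at least 2 member probes, the gap between the brightest and the dimmest had a median of 1.44 and a middle range of 0.60 to 2.74 on the log2 scale, and 320 genes exceeded 4. The widest were Rps24 (3.70 against 12.75), Nme7 (4.65 against 13.02), Hbb-bt (3.48 against 11.80), Mbp (4.90 against 12.99), Arpp21 (4.01 against 12.09) and Dpysl2 (3.42 against 11.44). Each gene above is represented by its probe with most detections and then the brightest mean.

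Detection of the member probes carried over to the other 8 mice, whose arrays the rule had not used. Of the 14265, 13680 (95.9%) were detected on all 4 arrays of the wig-1 ASO group and 13779 (96.6%) on all 4 of the control ASO group. Of all 45281 probes, 15228 to 17198 passed per array in the wig-1 ASO group and 15912 to 16614 in the control ASO group. On all 12 arrays 13467 (94.4%) were detected, and 2 on none of the other 8. The median SD of the members within those groups was 0.20 and 0.18. Of the 898 members with an SD over 0.5 among PBS mice, 23.4% exceeded 0.5 in the wig-1 ASO group, against 7.72% of all members there, and 16.1% in the control ASO group, against 4.45%. All members were not matched in signal to the 898. Among PBS mice 16.9% of probes at a mean of 3 to 4 exceeded 0.5, against 0.844% at 8 to 10. Whether the same probes varied beyond this dependence on signal was not tested. Arrays of all groups were normalized together, so these groups are not independent of each other in scale.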

How the data were processed

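RNA of BACHD striatum had been hybridised to Illumina MouseWG-6 v2 BeadChips, and lumi and siggenes are the packages in the authors' methods. For every probe and array the authors deposited an intensity on a linear scale, with its detection p-value, and they deposited a second table of log2 values. All 12 arrays held the same sorted intensities, from 2.00 to 14145 with a median of 2.90, which is what quantile normalization leaves, and the deposited log2 values matched the logarithm of the intensities to within 5.58e-09. They were used as deposited, with no further normalization. The detection p-values lay in steps of 1 part in 936. The number of arrays limits the precision.

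Of the probes, 34885 had 1 gene symbol, 18 had several and 10378 had none in the platform annotation given for this work, and 34807 were matched to RefSeq genes. Member probes had a detection p-value under 0.01 on all 4 PBS arrays. Values are means and SDs over these 4 mice, n = 4 throughout, and no comparison between groups was tested, since there is 1 group. Dixon's criterion for an outlying mouse was applied to the named genes and to list means. A gene was represented by its probe with most detections, then the brightest mean. Genes named were the first 6 measured of each of 49 lists and exceptions to them, the 20 brightest, the 20 of largest SD among members, the 10 of smallest SD above the median signal, 5 probes on each side of the rule, Htt, Zmat3 and the 6 widest probe gaps. Others, such as further members of a list, the unnamed bright probes and the pituitary hormones, were chosen after their values were seen. Members and lists were chosen with earlier results of these data known. Promoters came from RefSeq, the first entry per gene. Replicate mice are as labelled; whether they were littermates is not given. Spread and outlier calculations were tested on simulated data. Alternatives were other detection limits, 3 of 4 arrays, each mouse left out, common medians, a pseudocount of 16, quantile normalization of the PBS arrays, the mean over member probes and the value table. Python 3.11.15, pandas 2.3.3, numpy 2.4.6 and matplotlib 3.10.9 were used.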

Additional observations from a re-analysis of the deposited data

Results flagged for a closer look

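In 11 of 204 named genes that were detected on all 4 PBS arrays (5.39%), 1 mouse lay far from the other 3 by Dixon's criterion for 4 samples, and chance flags about 1 in 20. PBS mouse 4 stood apart in Acadl at 3.08, in Jun at 5.72, in Mrpl14 at 8.05 and in ND4 at 13.41. Another Acadl probe, detected on 1 PBS array, had PBS mouse 4 as its highest, at 2.66, 2.65, 2.30 and 3.66. PBS mouse 2 stood apart in Chat at 7.22, in Mcm4 at 6.25 and in Pdgfra at 6.98. PBS mouse 3 stood apart in Cnp at 9.10 and in Slc17a6 at 7.46, and PBS mouse 1 in Mrpl10 at 8.73 and in Ntng1 at 6.82. Of 35 list means, 0 were so flagged.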

How the results depend on the processing

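Counts of probes, genes and listed genes detected stayed within 1.5 times their values under each detection limit, under 3 of 4 arrays and without each mouse: without 1 mouse, member probes ran from 14471 to 14748, member genes from 8863 to 8930, listed genes from 266 to 269 (264 with all mice), the median SD from 0.18 to 0.21, and probes with an SD over 0.5 from 785 to 1242. That last count, 898, moved more elsewhere: to 1541 at a limit of 0.05, 367 at 0.001, 1789 for probes on at least 3 arrays and 125 with a pseudocount of 16, which shrinks differences of dim probes by construction. Common medians and quantile normalization of the 4 arrays gave 897 and 898. These 2 settings could show no dependence, since all arrays already held the same sorted intensities. The first shifted an array by at most 0.00012 and the second changed no value. Of 351 named gene means, 212 moved by over 1 SD with the pseudocount, which raises every mean by construction and dim genes most. When member probes were averaged, 51 of 204 means moved by over 1 SD. No paired analysis was possible because the results come from 1 group and no test. Signals near background limit dim genes, and non-detection is no absence.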
